A study of Mus musculus with 30 samples.

Results

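The 4 ATAC-seq libraries that a deposited table of 22 libraries names Teff 1 and 2 and Tnaive 1 and 2 carry names that are in doubt, and they make up 4 of the 30 samples of the series. They were picked because the second table, of 26 libraries, does not hold them, and because the Foxp3 locus was open in all of them; they were thus chosen by measured scores, and neither point is a finding here. The study compared mouse CD4+ T cells freshly sorted from lymph nodes and spleen, all C57BL6/J, and asked how Foxp3 and BATF set the accessible chromatin of effector regulatory T cells (Treg). ATAC-seq reads where a transposase can cut DNA, and each value is a normalized read score of a peak. The groups were wild-type and mutant Treg, conventional T cells (Tconv), sorted Treg and T cell subsets, and Treg lacking both factors that received retroviruses, each with 2 libraries.

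By the column names, the Teff pair is WT Teff sorted as CD4+hCD2-CCR7loCD62Llo and the Tnaive pair is WT Tnaive sorted as CD4+hCD2-CCR7hiCD62LhiCD44lo. Both would come from Foxp3-IRES-hCD2 mice, in which human CD2 reports Foxp3, so neither sort would contain reporter-positive Treg. By a shift of the names along the columns, the Teff pair is Foxp3KO Treg (Foxp3fs101-IRES-hCD2/Foxp3-IRES-GFP) and the Tnaive pair is its WT Treg control (Foxp3WT-IRES-hCD2/Foxp3-IRES-GFP). Both were sorted as CD4+hCD2+GFP-, so the cells used the hCD2 allele in mice that also carried a Foxp3-IRES-GFP allele. A further Foxp3 mutant, Foxp3R397W Treg, has a control pair of its own, and the names alone do not tell which mutant pair is which. The libraries are therefore called named Teff and named Tnaive throughout, and neither reading is taken as settled. Under either reading both pairs share a protocol: ATAC-seq by the column names, omniATAC-seq by the shift.

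Foxp3 is the X-linked transcription factor that defines Treg, the CD4+ cells that restrain other T cells. Treg without functional Foxp3 can still carry open chromatin at the Foxp3 locus, because the locus is opened before and apart from the protein. Central Treg are resting and recirculating, while effector Treg carry activation-induced genes and enter tissues, and BATF is an AP-1 family factor needed for much of that effector state.

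The names of the table were checked first. On the 4478 peaks with identical coordinates, 18 of the 22 libraries matched a library of the 26-library table, and for the shared libraries outside the BATF experiment the names differed between the tables. Named Teff 1 and 2 and named Tnaive 1 and 2 matched none, with at most 2.66% equal values. The tables together hold 30 distinct libraries, as many as there are samples, and the names missing from the 26-library table are Foxp3KO Treg and one WT Treg control pair. The libraries held 28958694 and 13950840 reads in peaks (named Teff 1 and 2) and 20125158 and 27383799 (named Tnaive 1 and 2). The scores of these libraries and of the 4 columns named cTreg and eTreg were scaled to a higher total than those of the other 14 columns, so levels across groups are given as RPM, the recovered reads of a peak scaled to the same total of reads in peaks in every library.

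At the Foxp3 peak inside the gene body (chrX:7583920-7584320, mm10), named Teff 1 and 2 had 31.4 and 34.7 RPM and named Tnaive 1 and 2 had 49.2 and 49.5. Tconv, which do not express Foxp3, had 0.592 and 1.62, and WT Treg had 44.1 and 46.9. The libraries that the 26-library table names Teff had 0.85 and 0.87, and those it names Tnaive had 0.132 and 0.958. The open locus was used to pick the 4 libraries, so these levels describe them and support neither reading of their names. The second Foxp3 peak (chrX:7586512-7586912) overlapped between groups, with 6.49 and 4.59 RPM in named Teff, 6.96 and 6.32 in named Tnaive and 5.53 and 3.77 in Tconv. At the Batf promoter peak (chr12:85686410-85686810) named Teff had 53.8 and 57.9 RPM and named Tnaive 58.4 and 52.5, while both BATFKO libraries had 0 reads, so neither pair carries the Batf deletion.

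Each library was then placed on 2 indices computed from peaks called in the 26-library table. The Treg index is the mean log2(RPM + 1) over the 6790 peaks with more signal in WT Treg than Tconv, less the same mean over the 6734 with less. Named Teff 1 and 2 stood at -0.25 and -0.12 and named Tnaive 1 and 2 at 0.75 and 0.79, with WT Treg at 0.90 and 0.73 and Tconv at -1.74 and -1.80. The value of named Teff was not particular to it. Under the names of the 26-library table, cTreg stood at -0.18 and -0.24 and Teff at 0.02 and -0.08. By the same names, eTreg stood at 1.62 and 1.61 and Tnaive at -2.06 and -2.06. The effector index uses 12718 peaks higher and 11757 lower in eTreg than in cTreg, and put named Teff at -1.13 and -0.90 and named Tnaive at -0.32 and -0.26. The libraries the 26-library table names Teff stood at 0.44 and 0.36, and those it names Tnaive at -1.92 and -1.90. On the effector index the pair named Teff therefore lay below the pair named Tnaive, the reverse of the order that the names give in the other table.

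**Figure D1:**
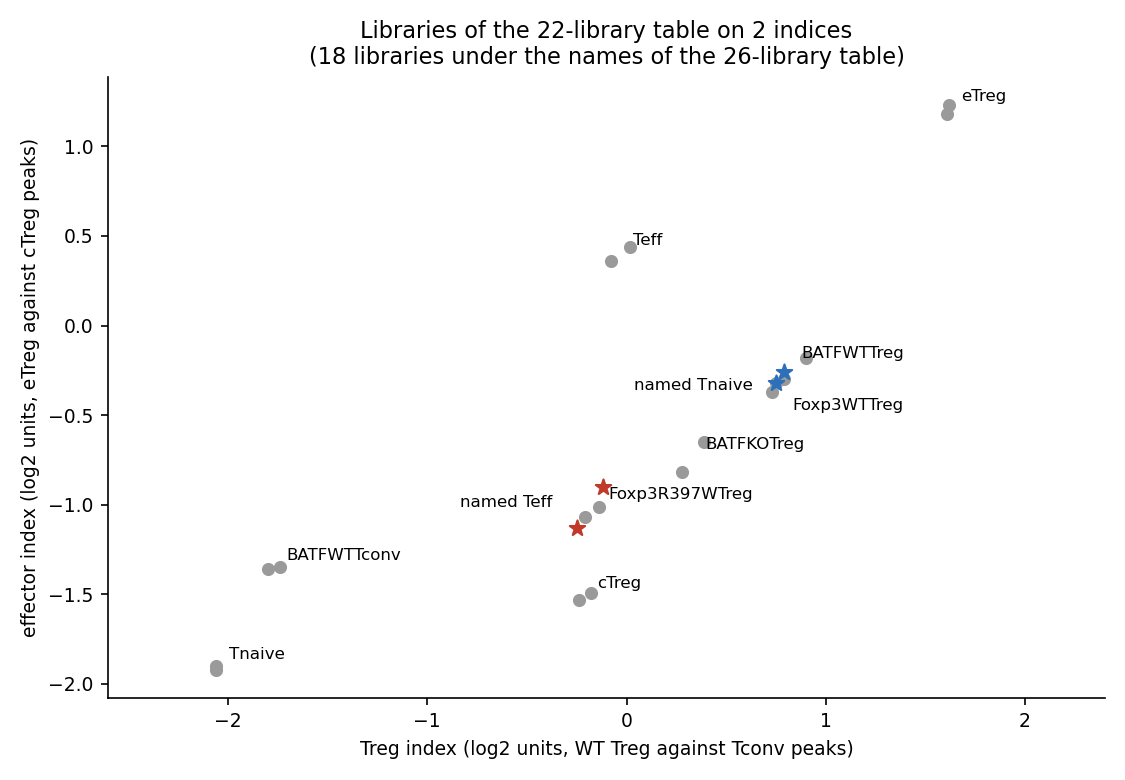
Treg index (horizontal, log2 units) against effector index (vertical, log2 units) of the 22 libraries; red stars are named Teff, blue stars named Tnaive, and grey points the 18 other libraries under the names of the 26-library table. Named Teff (-0.25 and -0.12 on the Treg index) sit beside the pair named Foxp3R397WTreg, and named Tnaive (0.75 and 0.79) beside Foxp3WTTreg; WT Treg, Tconv, eTreg and cTreg helped choose the peaks and are placed by them.

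Among single libraries, named Teff 1 was most like the first library named eTreg (r = 0.991 across 68597 peaks on log2(RPM + 1), against 0.990 with named Teff 2). Named Teff 2 was most like named Teff 1 (0.990, against 0.988 with that library). Named Tnaive 1 had r = 0.993 both with the first library named cTreg and with named Tnaive 2, and named Tnaive 2 had 0.994 with that cTreg library. The 26-library table names those libraries Foxp3R397WTreg1 and Foxp3WTTreg1. Peaks share library depth and base composition, so these values are descriptions. The chi-square per degree of freedom, about 1 under sampling noise alone, was 2.36 between named Teff 1 and that eTreg library, beside 2.39 between the named Teff libraries. It was 1.58 between named Tnaive 1 and that cTreg library, beside 1.84 between the named Tnaive libraries. The second library of each other pair was less alike. With the second library named eTreg it was 4.39 and 4.07 for named Teff 1 and 2, beside 4.25 within the pair named eTreg. With the second library named cTreg it was 3.15 and 4.05 for named Tnaive 1 and 2, beside 3.35 within the pair named cTreg. No label says that libraries of a pair came from separate animals, so the spread within a pair may be technical. Each p-value below rests on that spread pooled over all groups fitted. Unless only the groups compared were fitted, it does not reflect the spread of the compared pairs alone.

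Accessibility differed between named Teff and named Tnaive at many peaks, and more of them were lower than higher. Of 68597 peaks, 4158 (6.06%) passed a Benjamini-Hochberg adjusted p under 0.05 in limma on log2(score + 1). Of these, 1235 (1.8% of all peaks) were higher in named Teff, by a median log2 of 1.08, and 2923 (4.26%) were lower, by a median of -1.57. The higher peaks were 29.7% of the calls, a share that was 39.8% with quantile scaling and 40.4% with only these 4 libraries fitted. The groups did not overlap at any of the 4158, nor at 56.0% of all peaks. At least a 2-fold change was reached by 726 of the higher and 2501 of the lower peaks, and at least a 4-fold change by 54 of the higher and 786 of the lower. The nearest protein-coding gene within 100 kb was one of 793 genes for the higher and 1703 for the lower peaks, with 163 genes in both sets. The count depends on every library: it was 1016 without named Teff 1, 2277 without named Teff 2, 1322 without named Tnaive 1 and 1006 without named Tnaive 2. With any 1 of them left out, 132 of the higher and 484 of the lower peaks stayed called in all of these fits. Fewer cells of a type and less accessible chromatin per cell cannot be told apart in bulk samples.

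Promoters were called less often than other peaks. Of 8418 peaks on a promoter window, 0.154% were called higher and 0.986% lower in named Teff, against 2.05% and 4.41% of the 34634 peaks in gene bodies. Promoter peaks made up 12.3% of all peaks but 1.05% of the higher and 2.84% of the lower ones. Between genes 1.83% were higher and 4.97% lower, and of the 4042 peaks with no gene within 100 kb 2.94% were higher and 6.09% lower. Promoter peaks had a median score of 547, against 64.6 in gene bodies.

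At genes that mark Treg, more peaks were lower than higher in named Teff. The list of 14 Treg identity genes had 190 peaks, of which 19 were called lower (10.0%) and 1 higher (0.526%), with a median log2 change of -0.27 against 0.01 for all peaks. Nrp1, a semaphorin co-receptor that marks thymus-derived Treg, had 11 of its 39 peaks called lower and none higher. Its best peak, the one of lowest adjusted p (chr8:128549732-128550132, between genes), scored 159 and 250 in named Teff and 629 and 674 in named Tnaive (log2 -1.70, SE 0.26, limma adjusted p = 0.0001). Ikzf2, which encodes Helios, a zinc finger factor of stable Treg, had 5 of 40 lower. Its peak at chr1:69537635-69538035 scored 93.2 and 103 in named Teff and 291 and 276 in named Tnaive (log2 -1.52, SE 0.27, limma adjusted p = 0.00047). Both peaks stayed called whichever of the 4 libraries was left out, as did 5 of the 19 in all.

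Ctla4, an inhibitory receptor, had 1 of 21 peaks lower, with 103 and 144 in named Teff and 249 and 252 in named Tnaive. Lrrc32, which displays latent TGF-beta on the Treg surface, had 2 of 9 lower, one of them with 119 and 148 in named Teff and 301 and 308 in named Tnaive. Neither pair of values overlapped, which holds for every called peak. The call of the Ctla4 peak was lost without named Teff 1, named Tnaive 1 or named Tnaive 2, and that of the Lrrc32 peak without any one library. The one higher peak lay nearest Cd28, the costimulatory receptor, with 209 and 145 in named Teff and 68.0 and 68.8 in named Tnaive. Its call was lost without named Teff 1, named Tnaive 1 or named Tnaive 2 (limma adjusted p = 0.20, 0.076 and 0.081). None of the 18 peaks of Il2ra, the high-affinity IL-2 receptor chain, was called, nor any peak of Ikzf4, Gpr83, Tnfrsf18 or Tnfrsf4.

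Peaks of effector Treg genes made up the largest number of lower calls in any list. Of 228 peaks at 23 genes, 33 were lower (14.5%) and 5 higher (2.19%), with a median log2 of -0.36. Klrg1, an inhibitory receptor of highly differentiated lymphocytes, had 6 of its 9 peaks lower. The one at chr6:122262546-122262946 nearly closed, with scores of 2.29 and 3.03 in named Teff and 79.5 and 75.2 in named Tnaive (log2 -4.43, SE 0.49, limma adjusted p = 1.9e-06). Tigit, an inhibitory receptor, had 7 of 15 lower, the best with 77.2 and 114 in named Teff and 287 and 305 in named Tnaive. Of the 33, 7 stayed called whichever of the 4 libraries was left out: 4 at Klrg1 and 1 each at Tigit, Nfil3 (a transcription factor) and Pdcd1 (the PD-1 receptor).

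Il10, the suppressive cytokine, had 2 of 13 peaks lower, one inside the gene with 125 and 148 in named Teff and 376 and 387 in named Tnaive. Areg, which encodes the tissue repair factor amphiregulin, had 3 of 5 lower, one upstream with 9.93 and 24.2 in named Teff and 80.5 and 71.2 in named Tnaive. The Il10 call was lost without named Teff 1, named Tnaive 1 or named Tnaive 2 (limma adjusted p = 0.13, 0.074 and 0.095), and the Areg call without named Teff 1 (0.12). Genes of the list also went the other way: Prdm1, which encodes Blimp-1, had 2 peaks higher and 1 lower of 19, and Lag3 and Nt5e 1 higher each. No peak of Icos, Irf4, Ccr8 or Havcr2 was called.

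Among genes that Foxp3 is known to repress, more peaks were called higher than lower. Of 116 peaks at 9 genes, 11 were called higher in named Teff (9.48%) and 2 lower (1.72%), with a median log2 of 0.27. The higher peaks came from 4 of the genes, and the medians of Il4 (-0.44), Ptpn22 (-0.24), Il7r (-0.05) and Ifng (-0.04) were negative. Il2, a growth factor silent in Treg, had 1 of 6 higher, with 665 and 555 in named Teff and 278 and 273 in named Tnaive (log2 1.14, SE 0.19, limma adjusted p = 0.00034). It lies between genes at chr3:37152295-37152695 and is the one of the 11 that stayed called without any one library. Pde3b, a phosphodiesterase, had 3 of 11 higher, the best with 390 and 327 in named Teff and 156 and 146 in named Tnaive. Satb1, a chromatin organizer, had 5 of 27 higher, the best with 214 and 183 in named Teff and 80.5 and 64.0 in named Tnaive. Il21 had 2 of 13 higher. The 2 lower peaks were nearest Ifng (9.17 and 7.58 in named Teff, 49.1 and 43.2 in named Tnaive) and Ptpn22, a phosphatase that damps T cell receptor signals (110 and 199 in named Teff, 458 and 535 in named Tnaive).

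**Figure D2:**
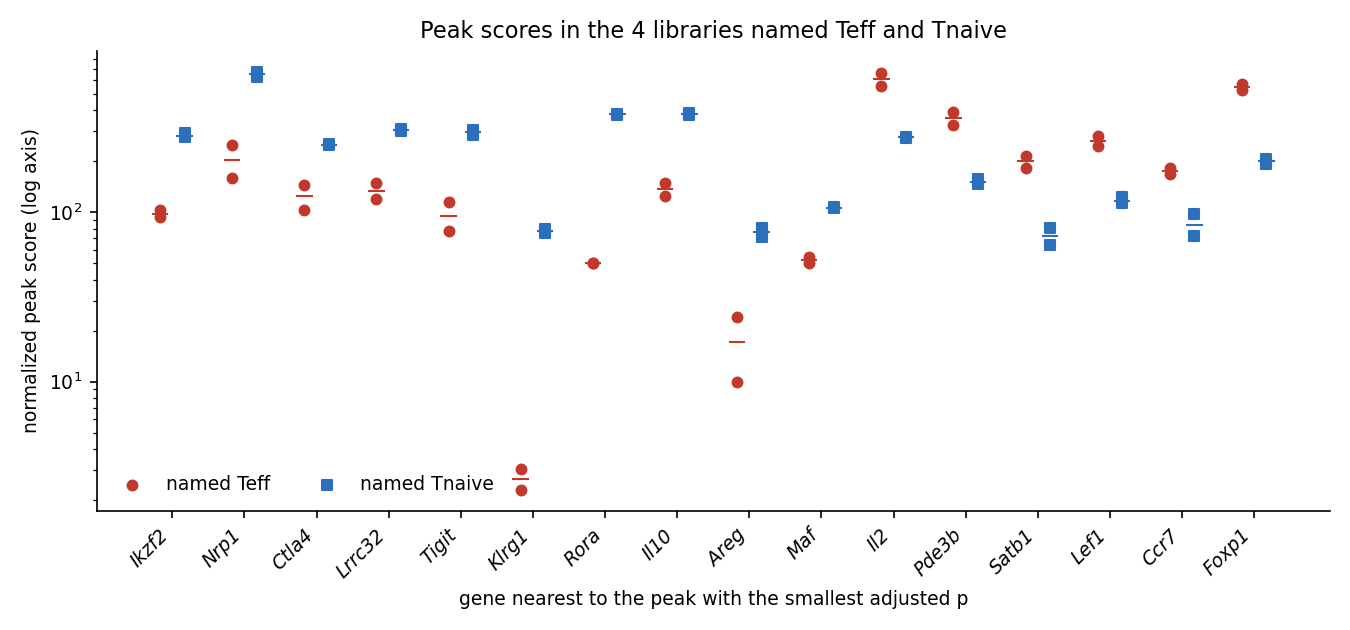
Normalized peak score (vertical, log axis) of the 2 named Teff (red circles, left) and 2 named Tnaive (blue squares, right) libraries at the best peak of 16 genes; short lines are means. From Ikzf2 to Maf named Teff lie below named Tnaive, from Il2 to Foxp1 above. No peak shown overlaps, which holds for every called peak and for 56.0% of all peaks, so it follows from the choice of peaks. Klrg1 has the widest gap (2.29 and 3.03 against 79.5 and 75.2).

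Genes of naive and central T cells, a list that shares Satb1, Tcf7 and Il7r with the repressed one, also had more higher than lower peaks in named Teff. Of 425 peaks at 15 genes, 23 were higher (5.41%) and 5 lower (1.18%), with a median log2 of 0.26. Foxp1, a forkhead factor of quiescent T cells, had 7 of 92 higher and 1 lower, the best with 568 and 524 in named Teff and 207 and 192 in named Tnaive. Lef1, a factor of the Wnt pathway kept on in naive cells, had 3 of 39 higher, the best with 244 and 280 in named Teff and 113 and 122 in named Tnaive. Ccr7, the lymph node homing receptor, had 1 of 20 higher, with 182 and 168 in named Teff and 72.1 and 96.9 in named Tnaive. Of the 5 lower peaks 3 were nearest Bach2, a repressor of effector genes, which also had 1 higher. No peak of Tcf7, Klf2 or Il7r was called, although 17 peaks of Tcf7 had a median of 0.26. None of these 23 stayed called in every fit that left out 1 library, and the Lef1 peak above had limma adjusted p = 0.034, 0.058, 0.065 and 0.044 without named Teff 1, named Teff 2, named Tnaive 1 and named Tnaive 2.

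Helper lineage genes were mixed. The type 17 list had 12 of 71 peaks lower (16.9%), all 12 at Rora, which encodes ROR-alpha, a nuclear receptor also used by tissue Treg. Its best peak (chr9:69339859-69340259, in the gene body) scored 50.4 and 50 in named Teff and 377 and 376 in named Tnaive (log2 -2.88, SE 0.33, limma adjusted p = 2.4e-06). Of the other type 17 genes, the cytokine gene Il17f had 1 of 2 peaks higher and the rest had no called peak. Median log2 values of those ranged from -0.69 at the single peak of Il22 and -0.48 at Ccr6 to 1.19 at Il17a. The type 1 list had 10 of 80 lower (12.5%) and 3 higher (3.75%), which were 4 peaks of the signal transducer Stat4, 2 each of Ccl5 and Il18rap and 1 each of Cxcr3 and Ifng lower, and 3 of the IL-12 receptor gene Il12rb2 higher. Tbx21, the master factor of type 1 cells, had no called peak. The type 2 list had 1 of 37 lower, at Gata3, and the follicular list 3 of 50 lower and 3 higher. Whichever of the 4 libraries was left out, 2 of the 12 Rora peaks and 1 of the 10 lower type 1 peaks stayed called.

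**Figure D3:**
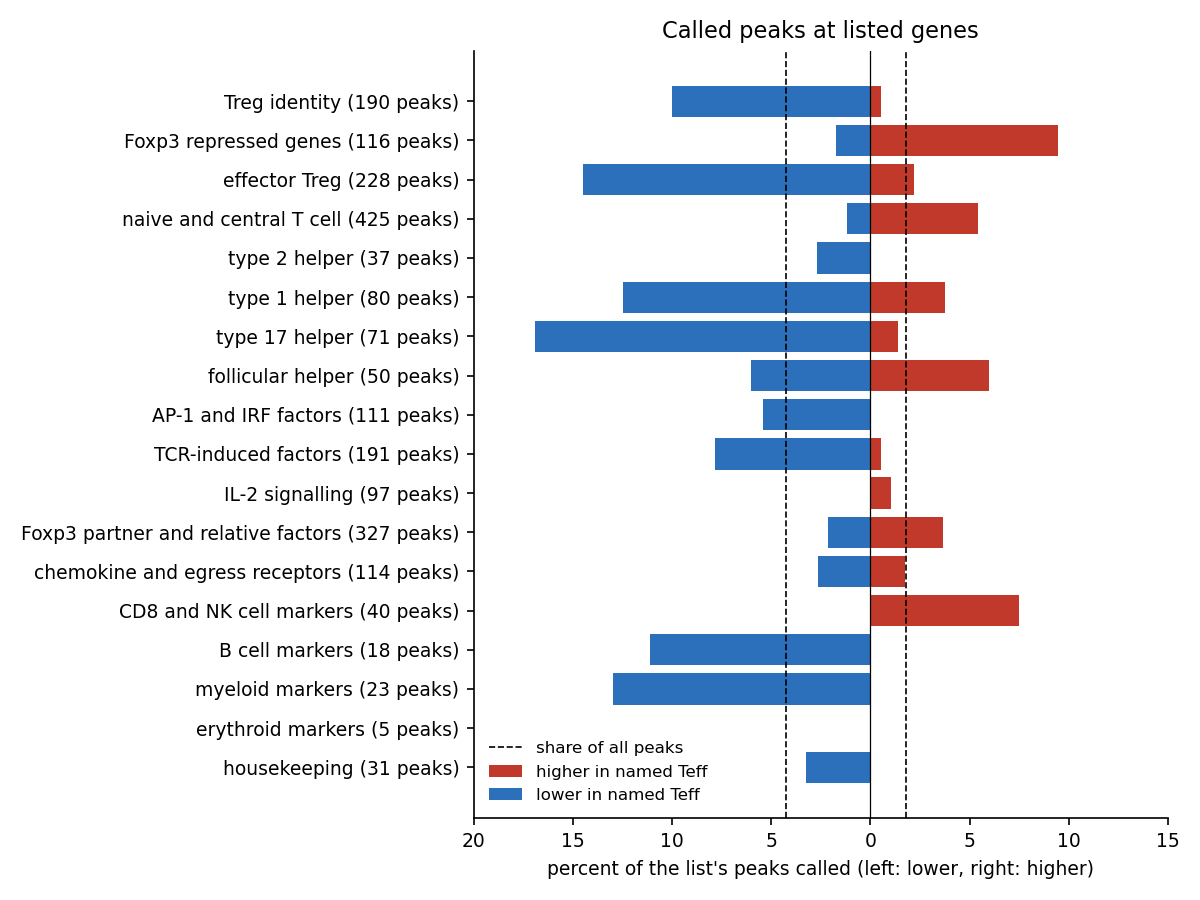
Percent of the peaks of each of 18 gene lists called lower (blue, to the left) or higher (red, to the right) in named Teff; dashed lines mark the shares of all peaks, 4.26% lower and 1.8% higher. Effector Treg and type 17 genes reach 14.5% and 16.9% lower, and Foxp3 repressed genes 9.48% higher.

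Genes of transcription factors and of IL-2 signalling are set beside the shares of all peaks, 4.26% lower and 1.8% higher. AP-1 and IRF genes had 6 of 111 peaks lower, at Batf, Batf3, Fosb and Jun, and none higher. Their 5.41% lower lies near the share of all peaks. Irf4 had no called peak. The lower Batf peak lies upstream of the gene (8.40 and 9.09 in named Teff, 53.3 and 41.6 in named Tnaive), while the promoter peak scored 1190 and 1224 in named Teff and 1228 and 1152 in named Tnaive. Factors induced by the T cell receptor had 15 of 191 lower (7.85%) and 1 higher (0.524%), 8 of the lower at Tox, a factor of chronically stimulated T cells. Its best peak (chr4:6930657-6931057) scored 29.8 and 43.9 in named Teff and 220 and 282 in named Tnaive (log2 -2.75, SE 0.33, limma adjusted p = 4.2e-06). Partners and relatives of Foxp3 had 12 of 327 higher (3.67%) and 7 lower (2.14%), the higher ones at Foxp1, Ikzf1, Bcl11b and Runx1. IL-2 signalling genes had 1 of 97 higher, at Jak1, and none lower. Whichever library was left out, 1 of the 6 lower AP-1 and IRF peaks and 4 of the 15 lower receptor-induced peaks stayed called, and none of the partner peaks did.

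Some markers of other cells were called, at larger shares than the 1.8% higher and 4.26% lower of all peaks. Each of these shares rests on 2 or 3 called peaks. Of B cell genes, 2 of 18 peaks were lower (11.1%), at Cd22 and Pax5, and the summed score of the list was 1518 to 1550 in named Teff and 1875 to 1941 in named Tnaive. Of CD8 and NK cell genes 3 of 40 peaks were higher (7.5%), at Klrd1, Prf1 and Eomes, with summed scores of 5067 to 5948 in named Teff and 4494 to 4558 in named Tnaive. Of myeloid genes 3 of 23 peaks were lower (13.0%), all at Cebpa, with sums of 2270 to 2302 in named Teff and 2370 to 2444 in named Tnaive. Erythroid genes had no call among 5 peaks, and Cd79a, Ms4a1, Csf1r, Adgre1, Alas2, Hba-a1 and Hbb-bs had no peak. No peak of Cd8a, Cd8b1, Gzma, Gzmb, Klrk1, Ncr1 or Nkg7 was called. Save at Cd22, the B cell, CD8 and NK cell and myeloid calls did not hold in every fit that left out 1 library. The part of other cells in the calls was not tested. Of 31 housekeeping peaks 1 was lower, nearest Tbp. Chemokine and egress receptor genes had 2 of 114 higher (1.75%, Ccr7 and S1pr1) and 3 lower (2.63%, Cxcr3, Cxcr4 and Cxcr5). Neither share lies above that of all peaks.

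Some genes outside the lists carried many called peaks. Nol10 and Plcb4 had 13 lower peaks each, of 19 and 24, and Itpr1, an intracellular calcium channel, had 12 of 48. Phlpp1, a phosphatase of the Akt pathway, had 11 of 25 lower and Zbtb20, a zinc finger repressor, 11 of 28, with 1 higher. In the other direction Tgfbr3, a co-receptor for TGF-beta, had 13 of 28 peaks higher, by log2 0.78 to 1.73, and Tgfbr2, the signalling receptor for TGF-beta, 6 of 35. Ctnnd2, a delta-catenin, had 10 of 14 higher, and one of them was among the largest changes of all: 25.2 and 37.9 in named Teff and 2.09 and 0 in named Tnaive (chr15:30662006-30662406, log2 4.18, SE 0.51, limma adjusted p = 4.6e-06). Named Tnaive had only 2 and 0 reads there, so the size of that change depends on the pseudocount. Nemp2 had a body peak of 673 and 823 in named Teff and 140 and 158 in named Tnaive (log2 2.31, SE 0.23). The largest falls among peaks above the median score were nearest Rbms3 (log2 -3.29) and Itpr1 (-3.22). Both calls were lost without named Teff 1, named Tnaive 1 or named Tnaive 2 (limma adjusted p = 0.064 to 0.11 at Rbms3 and 0.068 to 0.17 at Itpr1). The peak of Ptafr, the receptor for platelet-activating factor, stayed called whichever library was left out, with 26.7 and 34.9 in named Teff and 264 and 271 in named Tnaive (log2 -3.09, SE 0.37). So did those of Calcrl, a peptide hormone receptor, with 159 and 186 in named Teff and 35.5 and 22.4 in named Tnaive, of Nemp2 and of Ctnnd2.

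Of the 96 called promoter peaks, 5 belonged to genes of the lists, among them the myeloid factor Cebpa, with 120 and 171 in named Teff and 291 and 367 in named Tnaive (log2 -1.18), a call lost without named Teff 1 (limma adjusted p = 0.094) or named Tnaive 2 (0.073). Tigit was lower at its promoter, with 757 and 765 in named Teff and 1167 and 1389 in named Tnaive (log2 -0.74, SE 0.17, limma adjusted p = 0.0061). Areg was lower, with 206 and 268 in named Teff and 466 and 555 in named Tnaive (log2 -1.11, SE 0.25, limma adjusted p = 0.006). Satb1 was higher, with 536 and 468 in named Teff and 313 and 319 in named Tnaive (log2 0.67, SE 0.19, limma adjusted p = 0.035). Il17f was higher from a low level, with 22.9 and 43.9 in named Teff and 5.23 and 7.20 in named Tnaive (log2 2.2, SE 0.64, limma adjusted p = 0.033). The Tigit and Areg calls were lost without named Teff 1 (limma adjusted p = 0.082 and 0.16) or named Tnaive 2 (0.16 and 0.13), and the Satb1 and Il17f calls without any one library (0.086 to 0.35 and 0.092 to 0.31).

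The promoter windows of these genes are shown because these T cell genes of the lists were called at the promoter itself: an effector receptor and an effector growth factor that were lower and a repressed gene and a cytokine that were higher. Each is the RefSeq window from 250 bases before to 50 after the gene start (GRCm38.p6, the assembly of mm10), read 5′ to 3′ on the gene's strand. They lie at chr16:43664135-43664434 (minus strand, Tigit), chr5:91139349-91139648 (plus, Areg), chr17:51826539-51826838 (minus, Satb1) and chr1:20784221-20784520 (minus, Il17f). Capitals mark matches on either strand to the RUNX core TGTGGT and the ETS core AGGAAGT; none held the AP-1 letters TGANTCA or the forkhead letters TGTTTAC.
Tigit: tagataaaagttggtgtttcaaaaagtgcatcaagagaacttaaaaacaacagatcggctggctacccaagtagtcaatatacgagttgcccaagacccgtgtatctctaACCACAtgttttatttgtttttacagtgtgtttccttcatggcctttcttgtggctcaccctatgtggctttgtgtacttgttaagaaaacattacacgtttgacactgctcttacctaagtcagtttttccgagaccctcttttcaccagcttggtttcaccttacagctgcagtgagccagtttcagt
Areg: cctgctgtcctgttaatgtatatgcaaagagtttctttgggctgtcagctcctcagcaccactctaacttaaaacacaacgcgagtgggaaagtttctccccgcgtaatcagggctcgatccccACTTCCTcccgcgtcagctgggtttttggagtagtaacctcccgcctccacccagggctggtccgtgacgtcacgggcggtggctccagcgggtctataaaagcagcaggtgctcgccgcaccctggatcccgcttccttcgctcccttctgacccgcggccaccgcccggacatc
Satb1: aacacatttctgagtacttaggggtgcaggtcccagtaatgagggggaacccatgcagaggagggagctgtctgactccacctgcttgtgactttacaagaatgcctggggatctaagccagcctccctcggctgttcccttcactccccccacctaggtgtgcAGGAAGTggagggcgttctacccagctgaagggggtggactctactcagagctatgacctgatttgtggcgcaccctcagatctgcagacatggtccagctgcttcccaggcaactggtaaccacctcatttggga
Il17f: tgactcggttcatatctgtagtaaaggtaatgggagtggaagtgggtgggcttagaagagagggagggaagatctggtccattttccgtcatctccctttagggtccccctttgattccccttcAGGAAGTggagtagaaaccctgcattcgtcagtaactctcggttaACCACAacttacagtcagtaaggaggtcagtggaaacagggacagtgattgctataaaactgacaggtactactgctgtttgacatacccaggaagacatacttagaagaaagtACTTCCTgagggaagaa

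Over all such windows under a peak, the AP-1 letters stood in 11 of the 87 windows called lower in named Teff (12.6%), in 1 of 14 called higher (7.14%) and in 4.37% of 9900. The ETS letters stood in 9.2% of the lower, 28.6% (4 of 14) of the higher and 8.94% of all windows. The RUNX letters stood in 16.1%, 21.4% and 12.1% and the forkhead letters in 3.45%, 0% and 2.33% of the lower, higher and all windows. A match is a description of letters and not a binding site, and the sequences of peaks outside promoters were not used here.

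The change in named Teff against named Tnaive was set beside that of the other pair with which it shares neither library nor group, the libraries named eTreg minus those named cTreg. The 26-library table calls those pairs Foxp3R397W Treg and Foxp3 WT Treg. There 3864 peaks were called (5.63%), 1224 higher (1.78%) and 2640 lower (3.85%). Of the 1235 peaks higher in named Teff, 1231 had the same sign in that pair and 723 were called in the same direction (58.5% of the 1235, 59.1% of the 1224). Of the 2923 lower in named Teff, 2917 had the same sign and 1808 were called (61.9% of the 2923, 68.5% of the 2640). No peak was called in opposite directions. Across 68597 peaks the log2 changes had r = 0.81 and rho = 0.723, which describes peaks that share their genome and table and are not replicates.

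The difference between both changes, tested as an interaction in limma, passed at no peak, with 465 peaks (0.678%) at an unadjusted p under 0.05 and 1 call in edgeR. With no difference at any peak, a share of 0.05 would reach that mark if the spread were rightly estimated. The share found was far smaller, so the test was strict for these pairs and its lack of calls says little. The reason was not tested. A test that misses does not show that the changes are alike, so its intervals are given, which rest on the same pooled spread. Among the 4158 called peaks the 95% interval of the difference held 0 at 4093, and its median half-width was 1.04 on the log2 scale. It lay wholly within 1 log2 unit of 0 at 1131 of them. The median absolute difference was 0.24, beside a median absolute change of 1.41.

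Single peaks followed the counts. The Nrp1 peak above changed by log2 -1.70 in named Teff minus named Tnaive and by -1.93 in named eTreg minus named cTreg, and the Ikzf2 peak by -1.52 and -1.87. The Klrg1 peak changed by -4.43 and -5.72, Rora by -2.88 and -2.43, Tox by -2.75 and -2.70, Il2 by 1.14 and 0.98, and Nemp2 by 2.31 and 2.29. Effector Treg genes had 33 peaks lower and 5 higher in named Teff, beside 33 lower and 2 higher in named eTreg, and Foxp3 repressed genes had 11 higher, beside 13. Counts lay further apart for naive and central genes (23 higher in named Teff, beside 31 in named eTreg), type 17 genes (12 lower and 1 higher, beside 7 lower and 4 higher) and CD8 and NK cell genes (3 higher, beside 1). The Ctnnd2 peak at chr15:30662006-30662406 was further apart, at 4.18 and 1.63, with a 95% interval of the difference of 0.96 to 4.15. Named Tnaive had 2 and 0 reads at this peak, so the size of its difference depends on the pseudocount. The peak of Egr2, a factor induced by the T cell receptor, was apart as well, at -2.90 and -1.78 (interval -2.20 to -0.04). Neither difference passed the adjusted test.

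**Figure D4:**
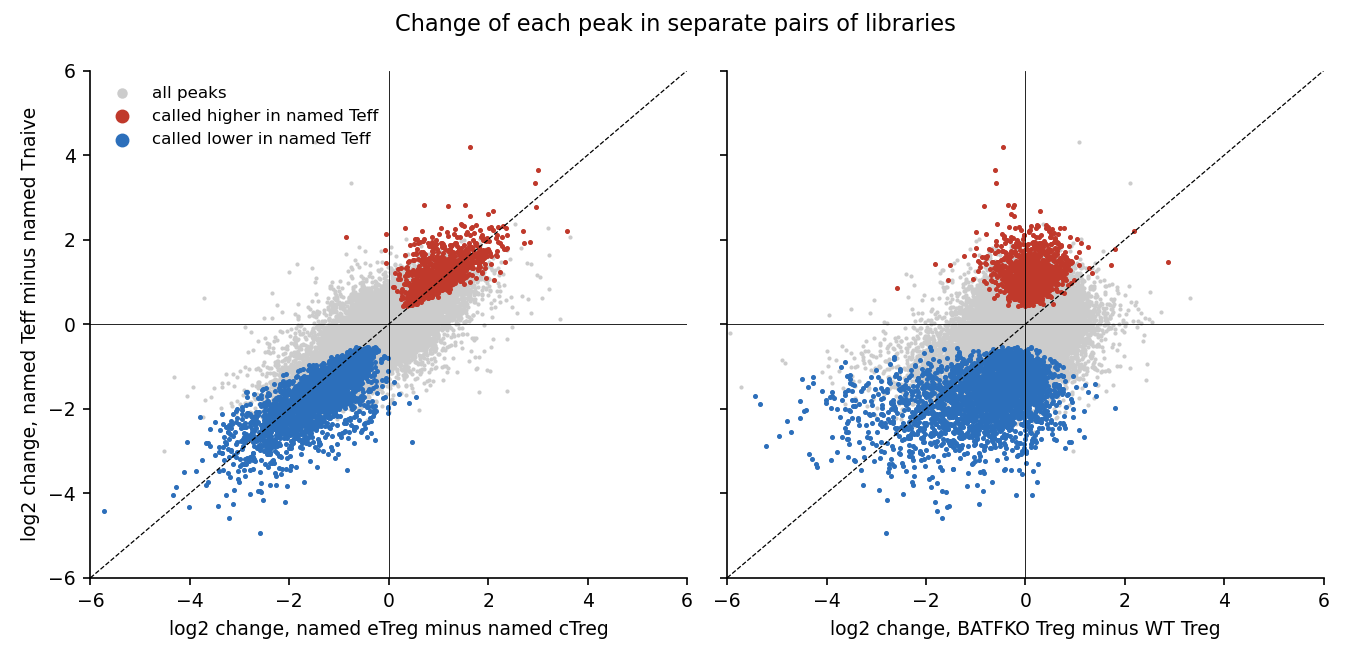
Log2 change of each of 68597 peaks in named Teff minus named Tnaive (vertical) against named eTreg minus named cTreg (left panel, horizontal) and BATFKO Treg minus WT Treg (right panel, horizontal); red and blue are peaks called higher and lower in named Teff, dashed lines mark equal change. On the left both sets lie along the dashed line (r = 0.81); on the right the red set is centred near 0 (median 0.12) and the blue set below it (median -0.59), with r = 0.393.

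The change was next set beside that of BATF loss, in BATFKO Treg against WT Treg, which carry the same names in both tables. That comparison called 1418 peaks (2.07%), 77 higher (0.112%) and 1341 lower (1.95%). Of the 2923 peaks lower in named Teff, 2427 had the same sign in BATFKO Treg and 603 were called lower there (20.6% of the 2923, 45% of the 1341), with a median log2 of -0.59. Of the 1235 peaks higher in named Teff, 805 had the same sign, 10 were called higher and 6 lower in BATFKO Treg, with a median of 0.12. Across peaks r was 0.393 and rho 0.256.

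The changes differed from each other at 297 peaks (0.433%, limma interaction, adjusted p under 0.05), 204 (0.297%) with a more positive change in named Teff and 93 (0.136%) with a more negative one. That balance depended on the settings: it was 281 and 390 with only the groups compared, 355 and 393 with a pseudocount of 5, and 924 and 936 in edgeR with TMM. This count was 112 and 133 without named Teff 1 and 2, 76 and 80 without named Tnaive 1 and 2, 206 and 200 without BATFKO Treg 1 and 2, and 112 and 179 without WT Treg 1 and 2. The values that follow are scores, which are on a higher scale in named Teff and named Tnaive than in BATFKO Treg and WT Treg. Only values within a comparison can therefore be set against each other. The changes also come from separate sets of libraries, and by the shift of names from omniATAC-seq and ATAC-seq. A difference between the changes thus cannot be told apart from one of library set, protocol or score scale. At the Nrp1 peak both pairs lost accessibility but BATFKO Treg lost more, with 5.84 and 3.04 in BATFKO Treg and 243 and 213 in WT Treg (log2 -5.44, against -1.70 in named Teff). At Ctnnd2 (chr15:30610623-30611023) they went opposite ways: 478 and 455 in named Teff and 231 and 290 in named Tnaive, but 47.2 and 45.7 in BATFKO Treg and 292 and 276 in WT Treg. At the promoter of Cd80, a costimulatory ligand, named Teff had 12.2 and 24.2 and named Tnaive 98.3 and 109, while BATFKO Treg had 122 and 86.3 and WT Treg 38.8 and 59.9.

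The called peaks were looked up in comparisons of the 26-library table, none of which holds any of the 4 libraries. With an overlap of at least 0.5 of both peaks, 1227 of the higher and 2866 of the lower peaks had a partner. In eTreg minus cTreg, 937 of the higher peaks (76.4%) were called lower and 2476 of the lower peaks (86.4%) higher, beside 17.8% and 19.3% of all matched peaks. Over that whole table of 69316 peaks, 19.7% were called higher and 17.4% lower (37.1% in all). In Teff minus Tnaive as that table names them, 982 of the higher peaks (80.0%) were called lower and 2349 of the lower peaks (82.0%) higher, where 20.7% of the whole table was called higher and 19.6% lower (40.3% in all). Most of these peaks thus changed there in the direction opposite to that between the libraries with the same names here. Because long lists of 13541 higher and 13301 lower matched peaks were called in that comparison, those peaks are 17.3% of the higher and 7.38% of the lower list.

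In WT Treg minus Tconv, 1028 of the peaks higher in named Teff (83.8%) were lower in Treg and 0 higher, and 1818 of the lower ones (63.4%) were higher in Treg and 9 lower, beside 10.2% lower and 10.3% higher of all matched peaks (10.1% higher and 9.92% lower in the whole table, 20% in all). In Foxp3R397W minus Foxp3 WT Treg, 416 of the higher peaks (33.9%) were higher and 1065 of the lower (37.2%) were lower, which are 77.9% and 84.8% of that comparison's matched calls (0.776% higher and 1.85% lower in the whole table, 2.63% in all). In BATFKO minus WT Treg there, 479 of the lower peaks (16.7%) were lower, where 0.062% of the whole table was higher and 1.43% lower (1.49% in all). That table was scaled separately, and the libraries of both comparisons are those already described under the 22-library names, so these values repeat them.

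The same peaks were looked up where a retrovirus returned a factor to Treg lacking both. With Foxp3 virus against mock, 260 of the lower peaks (9.07%) gained accessibility and 187 of the higher ones (15.2%) lost it, beside 0.996% and 0.84% of all matched peaks, and 7 and 1 went the other way (1.01% higher and 0.814% lower in the whole table, 1.82% in all). With BATF virus against mock, 690 of the lower peaks gained (24.1%, beside 3.07% of all), and 8 of the higher ones lost (0.652%, beside 0.299% of all), while 6 of the lower lost and 14 of the higher gained (1.14%), where the whole table had 3.2% higher and 0.291% lower (3.49% in all). These 690 are 34.1% of the peaks that BATF virus raised, and the 260 are 39.6% of those that Foxp3 virus raised. The difference between the viruses was not tested.

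**Figure D5:**
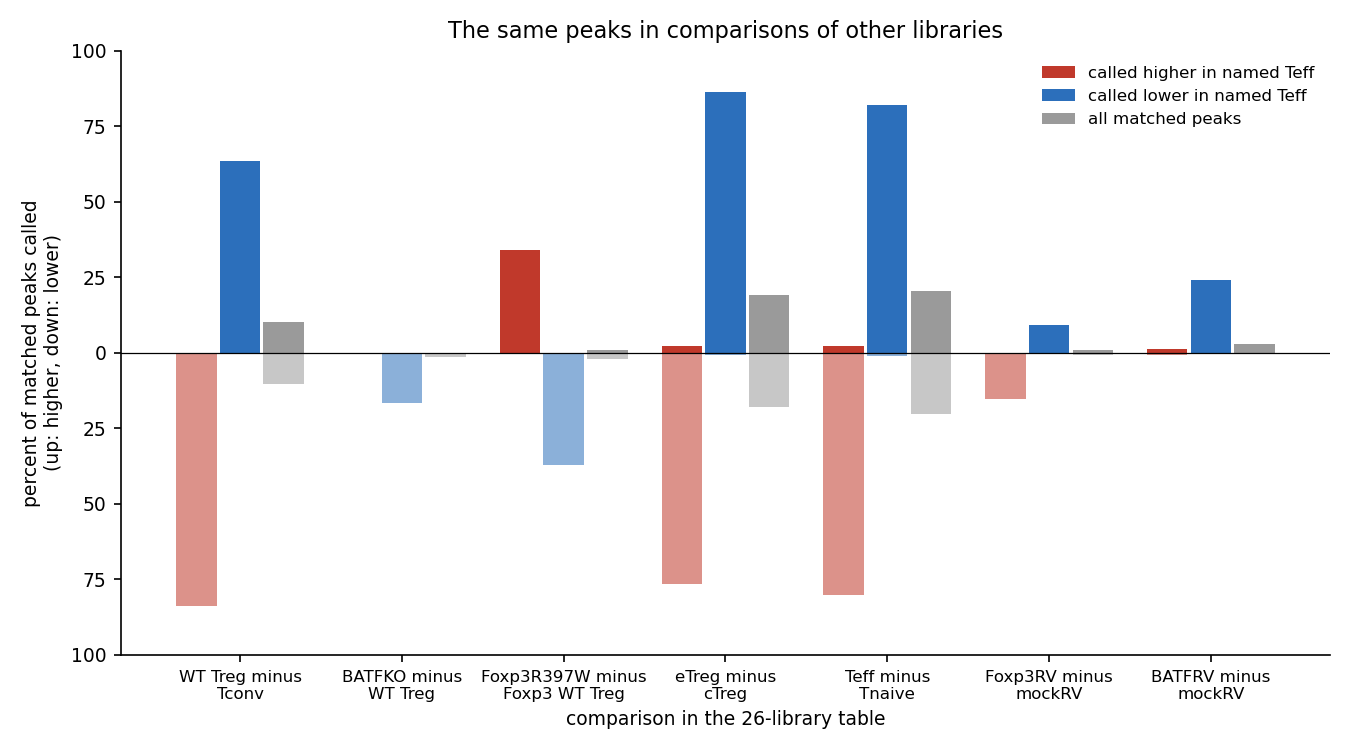
Percent of the peaks called higher (red) or lower (blue) in named Teff, and of all matched peaks (grey), that were called higher (upward, full colour) or lower (downward, pale) in 7 comparisons of the 26-library table. Peaks lower in named Teff were mostly higher in eTreg (86.4%) and in the pair named Teff there (82.0%), and peaks higher in named Teff were mostly lower in WT Treg than in Tconv (83.8%).

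Sorting all matched peaks by these comparisons showed where the change was concentrated. Of 4053 peaks higher both in WT Treg than Tconv and in eTreg than cTreg, 39.1% were lower in named Teff and none higher, with a median log2 of -0.95. Peaks higher in WT Treg but not called between eTreg and cTreg (2364) were lower in 9.26%, with a median of -0.34. Peaks not called between Treg and Tconv but higher in eTreg (8343) were lower in 10.6%, with a median of -0.43. In mirror image, of 3591 peaks lower in both comparisons 22.8% were higher in named Teff and none lower, with a median of 0.61. Of the 36274 peaks called in neither, 0.198% were higher and 0.422% lower. The libraries named eTreg minus cTreg had medians of -0.91 and 0.60 in the first and the mirror class, and BATFKO Treg had -0.48 and 0.18.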

How the data were processed

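ATAC-seq of 30 mouse T cell samples was deposited as 2 tables of peaks by library, with 22 and 26 columns. Each value is the normalized read signal of a peak that the authors deposited. The submitters' processing notes name Bowtie2 2.4.1, MACS2 2.2.7.1, edgeR (3.36.0, 3.38.4), DiffBind (3.0.15, 3.4.11) and the mm10 build, without their roles. Values of a library were whole multiples of 1 factor within 0.02 reads for 100% of values, so whole read counts were recovered from the deposited signal. Column names differ between the tables, and libraries were matched by their values on identical peaks.

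The test was limma 3.58.1 (R 4.3.3) on log2(score + 1) over all 11 groups of the 22-library table, with trended, robust variance and Benjamini-Hochberg adjustment over 68597 peaks. edgeR 4.0.16 on the recovered counts was an alternative chosen after seeing the data, which called 9519 peaks. In data simulated for named Teff minus named Tnaive, 83 of 100 peaks changed 2-fold and 100 of 100 changed 4-fold were recovered, with 10 false calls among 68597. The changed peaks were all drawn from above the median score, so recovery at weaker peaks was not measured. Each simulated peak had the same mean in all groups before the change, unlike the real data. Peaks were given the nearest protein-coding gene within 100 kb (RefSeq, GRCm38.p6) and joined between tables with bedtools 2.31.1. Other alternatives were another pseudocount, a score filter, quantile scaling, a test against a 1.5-fold change, a replicate block, fewer groups and left-out libraries.

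The libraries, gene lists and tests were chosen with earlier results of these data known. Named peaks were the 10 largest changes per direction above the median score (1 per gene), the 4 genes of lowest adjusted p per list, the 5 lowest p per direction in each difference of effects, and 18 genes given always; other called peaks of list genes, genes with many called peaks and promoter peaks were named after their values were seen. Peak widths and coordinates are as deposited. Values of some single genes of the lists are not reported here.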

Additional observations from a re-analysis of the deposited data

Results flagged for a closer look

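The change in named Teff against named Tnaive and the change in BATFKO Treg against WT Treg differed at 297 peaks by the limma test of the difference itself (adjusted p under 0.05). The groups are those of the column names, whose correctness is in doubt for named Teff and named Tnaive. The peaks given here are the 5 of lowest p in each direction. Their scores are on a higher scale in named Teff and named Tnaive than in BATFKO Treg and WT Treg, so levels of the former cannot be set against those of the latter. A difference between the changes cannot be told apart from one of library set, score scale or, by the shift of names, protocol.

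A more positive change in named Teff was found at Nrp1 (difference 3.74 log2 units, SE 0.37, limma adjusted p = 2.8e-07), where both changes were negative. The Ctnnd2 peak differed by 3.43 (SE 0.27) and changed in opposite directions. At Gpr15, a homing receptor for the colon, the difference was 2.60, with 266 and 355 in named Teff, 444 and 506 in named Tnaive, 41.8 and 45.7 in BATFKO Treg and 476 and 364 in WT Treg. At Ptpn13, a phosphatase, it was 3.92, with 124 and 199 in named Teff, 298 and 296 in named Tnaive, 8.09 and 3.04 in BATFKO Treg and 189 and 156 in WT Treg. At the Batf promoter it was 7.91, with both BATFKO libraries at 0 and WT Treg at 205 and 270, so its size depends on the pseudocount, and the peak lies in the deleted gene.

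A more negative change in named Teff was found at the Cd80 promoter, by -3.59. At Gphn it was -4.19, with 6.88 and 10.6 in named Teff, 164 and 151 in named Tnaive, 40.9 and 73.1 in BATFKO Treg and 47.3 and 52.0 in WT Treg. At Fubp3 it was -3.16, with 50.4 and 56.1 in named Teff, 262 and 299 in named Tnaive, 56.2 and 43.6 in BATFKO Treg and 22.7 and 35.3 in WT Treg. At Ttn it was -2.73, with 43.5 and 34.9 in named Teff and 212 and 226 in named Tnaive. At Dnase1l3 it was -2.51, with 62.7 and 89.4 in named Teff and 310 and 441 in named Tnaive, and 111 and 100 in BATFKO Treg and 91.8 and 89.9 in WT Treg.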

How the results depend on the processing

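All 4158 calls of named Teff minus named Tnaive kept their sign wherever they were tested (4143 of them under the score filter), but their number moved. The groups did not overlap at any of the 4158. Leaving out a library, another pseudocount or fewer groups therefore could not have turned a sign, and the kept signs are no support for the calls. It was 6248 (4409 lower) with a pseudocount of 5, 465 (52 higher, 413 lower) against a 1.5-fold change, 14919 (6030 higher, 8889 lower) with only the groups compared, 9519 (3676 and 5843) in edgeR with TMM and 9284 (3189 and 6095) with library totals, and 1006 to 2277 (210 to 567 higher, 754 to 1710 lower) without 1 library. The replicate block left 3730. Deviations of same-numbered libraries had r = 0.023. With 2 libraries a group this value cannot settle whether same-numbered libraries share an animal or a day, and no label says so. The difference from BATF loss, 297 peaks, was 748 (355 higher, 393 lower) with a pseudocount of 5, 591 (462 higher) with quantile scaling, 37 (30 and 7) against a 1.5-fold change, and 671 (390 lower) with only the groups compared. In edgeR it was 1860 (924 and 936) with TMM and 1776 (848 and 928) with library totals, and 228 (168 higher, 60 lower) with the replicate block. Without 1 library it was 76 to 206 (62 to 174 higher, 14 to 70 lower). The difference from named eTreg minus named cTreg, 0 peaks, was 2 (both lower) with only the groups compared, 1 (lower) in edgeR under either scaling and 0 to 1 (0 to 1 higher) without 1 library, the 1 being without named cTreg replicate 2. The cause of these moves was not tested. Of 110 named peaks none reversed, which for called peaks was fixed in most settings by the lack of overlap. Some of the 110 were not called to begin with and could not lose a call. The counts that follow are thus not shares of called peaks. Calls were lost at 56 against a 1.5-fold change, 45 and 24 without named Teff 1 and 2, 33 and 46 without named Tnaive 1 and 2, 13 with quantile scaling, and 4 each with the replicate block and only the groups compared. The median standard error was 0.30 log2 units, and 2 libraries a group limit what can be called.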
